A study of Mus musculus with 4 samples.

Results

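The endoplasmic reticulum chaperone and folding genes described here are 10 genes chosen by name: Hspa5, Hsp90b1, Pdia4, Pdia6, Calr, Canx, Sel1l, Derl3, Creld2 and Dnajb9. Each matched 1 row among the 41214 genes of the count table by its Ensembl identifier, and all 10 were tested, as were 14554 genes in all, those that reached 10 counts in 2 or more libraries. The libraries came from splenocytes of mice that were pulled out of the spleen with a B220 antibody and magnetic beads and were not stimulated. MIZ-1, the zinc finger transcription factor encoded by Zbtb17, was intact in the MIZ-1WT mice. In the MIZ-1DPOZ mice its floxed POZ domain was deleted by MB1-Cre, which is expressed from the Cd79a locus in B cells. The study describes this domain as the part through which MIZ-1 forms homodimers and recruits coactivators. A truncated protein with its zinc fingers remained. The study's methods describe a C57BL/6 background for all lines and animals of at most 70 days. There were 2 libraries per genotype, named as biological duplicates, and the sources used here do not say whether the MIZ-1WT mice carried Cre, nor whether a library was made from 1 animal or a pool.

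Proteins that are secreted or placed in membranes fold in the endoplasmic reticulum (ER), where chaperones hold unfolded chains, protein disulfide isomerases form and rearrange disulfide bonds, and the lectins calreticulin and calnexin retain glycoproteins until they are folded. Chains that fail are drawn back to the cytosol and degraded, a process called ER-associated degradation. When unfolded chains accumulate, the sensors IRE1, PERK and ATF6 start the unfolded protein response, in which XBP1, ATF4 and ATF6 raise the genes of these proteins, and B cells that become antibody-secreting plasma cells expand the whole apparatus.

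The promoters of the 10 genes were read from RefSeq windows of GRCm38.p6, the build of the counts, each covering 250 bases before the transcript start. They were searched on both strands for the ER stress response element, the sequence bound by ATF6 and NF-Y and written here as CCAAT, 9 free bases and CCACG. The element was present upstream of 7 of the 10 genes, against 37 of 32851 RefSeq windows (0.113%). The elements are shown because they are a sequence feature that most of these genes share. The genes were chosen by name as ER chaperone and unfolded protein response genes, and the element as one bound by ATF6. These choices were not independent of each other, so the match is a description and not an enrichment found here. Each is written 5′ to 3′ in the direction CCAAT to CCACG, with capitals on these boxes.
Hspa5: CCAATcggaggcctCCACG
Hsp90b1 distal: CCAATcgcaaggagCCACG
Hsp90b1 proximal: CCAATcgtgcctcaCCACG
Pdia6: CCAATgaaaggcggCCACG
Calr: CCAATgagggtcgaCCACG
Canx: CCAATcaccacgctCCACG
Derl3: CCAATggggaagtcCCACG
Creld2: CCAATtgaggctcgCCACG

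The Hspa5 element lay on the strand of the gene at chr2:34772025-34772043, from base -65 to base -47 relative to the RefSeq start. Hsp90b1 held a distal element on its own strand at chr10:86705638-86705656, which began at base -212, and a proximal element on the opposite strand at chr10:86705533-86705551, which began at base -107. Those of Pdia6 (chr12:17266491-17266509, from base -98) and Canx (chr11:50325800-50325818, from base -145) were on the strand of the gene. Those of Calr (chr8:84847075-84847093, from base -162), Derl3 (chr10:75893242-75893260, from base -156) and Creld2 (chr15:88819520-88819538, from base -126) were on the opposite strand. The free bases differed between all 8 elements, and 6 or 7 of the 9 were G or C.

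Dnajb9, Pdia4 and Sel1l held no element in their windows, which says only that these letters were not found there. GENCODE places the start of Pdia4 82 bases downstream of the RefSeq start and that of Dnajb9 258 bases upstream, so that the whole Dnajb9 window lay in exons of GENCODE. The Hspa5 element likewise began 55 bases downstream of the GENCODE start. The CCAAT box alone was found in all 10 windows (33.8% of all windows), CCACG alone in 9 (28.3%), and the XBP1 core TGACGTGG in 0 (0.563%). The CCAAT and CCACG counts include the boxes of the elements.

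The 250 bases upstream of the 3 genes with the largest changes are printed on the strand of the gene, with no exon of GENCODE in any of them. They are Derl3 at chr10:75893148-75893397 on the plus strand, Creld2 at chr15:88819396-88819645 on the plus strand and Pdia4 at chr6:47813513-47813762 on the minus strand. Capitals mark the boxes of the element as they read on this strand (CGTGG and ATTGG) in Derl3 and Creld2, and the 3 CCAAT boxes, of which 1 is reversed, in Pdia4.
Derl3: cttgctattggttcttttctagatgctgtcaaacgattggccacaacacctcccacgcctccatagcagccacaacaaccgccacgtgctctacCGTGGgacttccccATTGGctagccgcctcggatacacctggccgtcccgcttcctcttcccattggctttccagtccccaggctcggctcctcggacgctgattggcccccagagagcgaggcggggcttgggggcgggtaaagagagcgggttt
Creld2: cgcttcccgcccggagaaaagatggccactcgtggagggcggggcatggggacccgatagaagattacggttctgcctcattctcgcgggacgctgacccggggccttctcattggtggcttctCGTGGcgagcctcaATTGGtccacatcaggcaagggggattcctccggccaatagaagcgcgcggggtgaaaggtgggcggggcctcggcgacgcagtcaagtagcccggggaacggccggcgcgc
Pdia4: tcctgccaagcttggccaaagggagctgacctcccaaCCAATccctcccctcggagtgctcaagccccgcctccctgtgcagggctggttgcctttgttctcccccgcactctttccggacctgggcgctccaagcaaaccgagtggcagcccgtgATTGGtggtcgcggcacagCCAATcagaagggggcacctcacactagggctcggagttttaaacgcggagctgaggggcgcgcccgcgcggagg

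**Figure D1:**
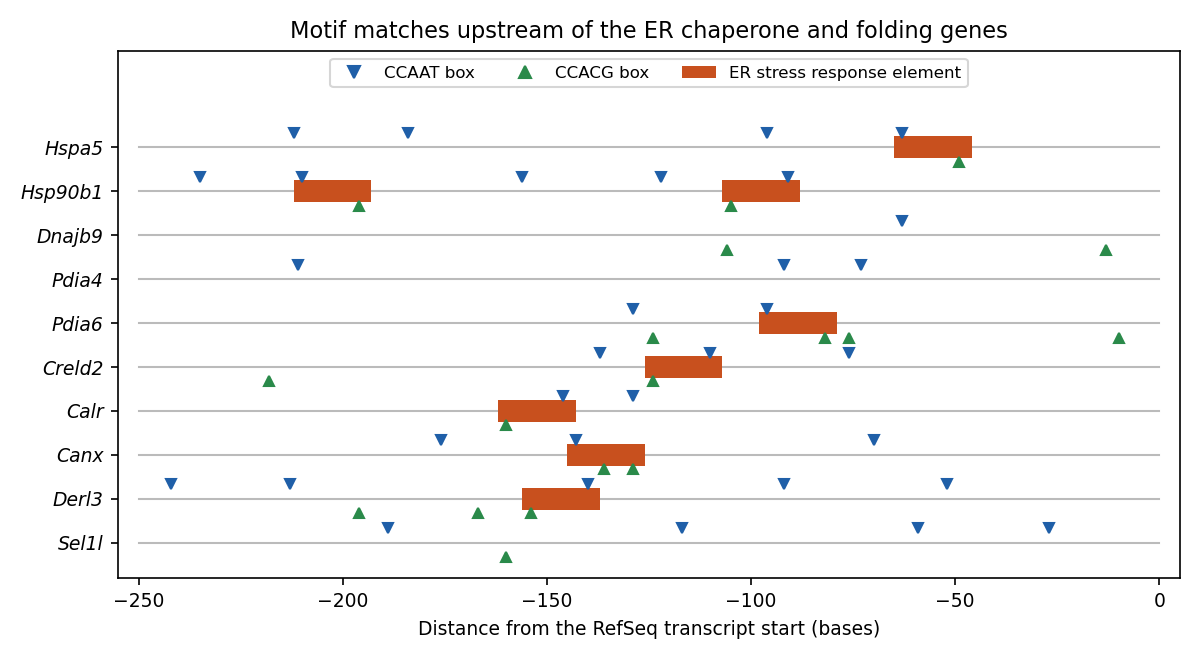
Motif matches on either strand (horizontal axis, distance in bases from the RefSeq start) upstream of each gene: bars are ER stress response elements, downward triangles CCAAT boxes and upward triangles CCACG. Dnajb9, Pdia4 and Sel1l have no bar, Hsp90b1 has 2, and every gene has at least 1 CCAAT box.

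The libraries held between 43026814 and 46387209 reads counted on genes. Levels are given as CPM, counts scaled to a common library total after edgeR's TMM normalization, and log2 fold changes are MIZ-1DPOZ over MIZ-1WT from edgeR's quasi-likelihood test, with p adjusted over the 14554 tested genes by the Benjamini-Hochberg method and called below 0.05. Zbtb17 itself was lower in MIZ-1DPOZ (log2 fold change -0.32, adjusted p = 0.00857), but a count over the whole gene does not measure the deleted part. Xist was at 1.12 and 1.43 CPM in MIZ-1WT and at 801 and 930 CPM in MIZ-1DPOZ, and Ddx3y, on the Y chromosome, was at 363 and 354 CPM in MIZ-1WT and at 14.3 and 14.2 CPM in MIZ-1DPOZ. The sex of the animals and the genotype therefore cannot be told apart in any value that follows. Cd79a, the gene into which MB1-Cre is inserted, was at 336 and 311 CPM in MIZ-1WT and at 103 and 135 CPM in MIZ-1DPOZ (log2 fold change -1.44, adjusted p = 0.00157), and an effect of the insertion cannot be told apart from that of the POZ deletion either. Reads that the counting assigned to no feature were 27.2% and 25.5% of the MIZ-1WT libraries and 21.6% and 21.1% of the MIZ-1DPOZ libraries. The total for these shares includes reads not aligned uniquely. Reads without a feature can lie outside genes or in introns, which the count table does not separate. The part of this difference in the results was not tested.

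Derl3, Pdia4, Creld2, Dnajb9 and Sel1l rose in MIZ-1DPOZ B220+ cells, by between 1.12-fold and 2.55-fold. The chaperones and lectins Hspa5, Hsp90b1, Calr and Canx, and the isomerase Pdia6, did not pass the test. Thus 5 of 10 genes were higher and 0 were lower, where 21.1% of all tested genes were higher and 18.9% lower (40.0% in either direction). In either direction, 5 of 10 called is near that 40.0%, and all 5 calls of these genes were rises. The count of 0 lower was also 0 at an unadjusted p under 0.05 and with DESeq2, which called 4 higher. The median log2 fold change of the 10 genes was 0.16, against -0.01 over all tested genes, whose quartiles were -0.23 and 0.33. Both MIZ-1DPOZ libraries lay above both MIZ-1WT libraries for 6 genes (37.2% of tested genes) and below them for 1 (37.6%), so that the groups did not overlap for 7 of 10 genes (74.8% of tested genes).

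**Figure D2:**
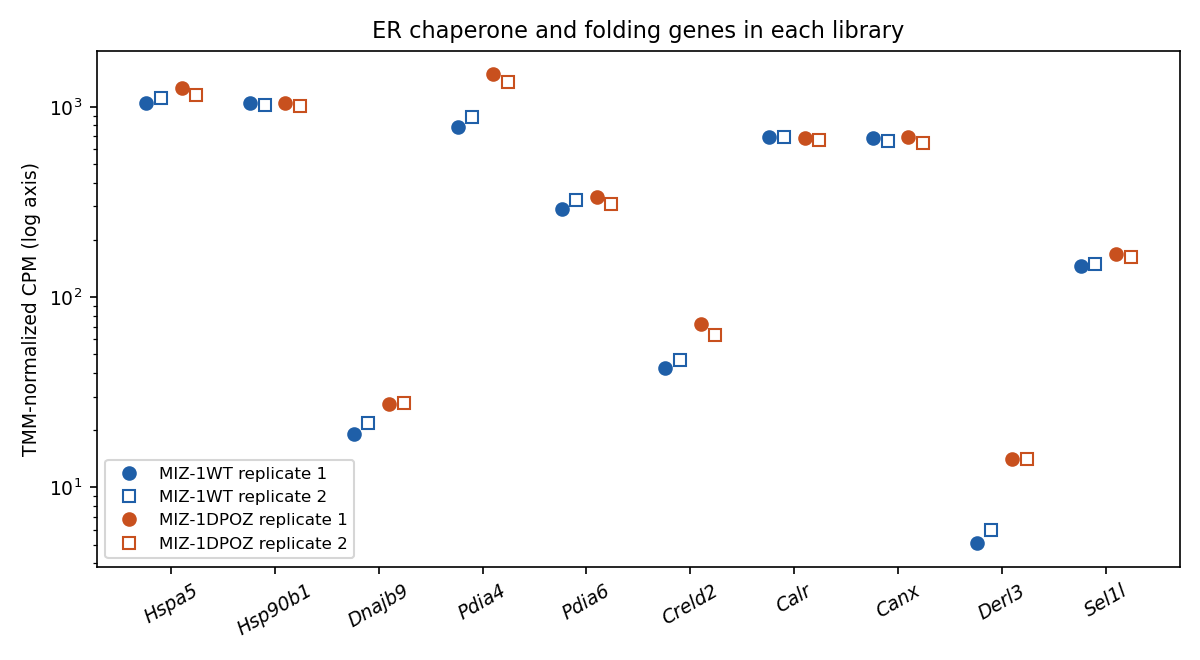
TMM-normalized CPM (log axis) of each gene in each of the 4 libraries, with circles for replicate 1 and squares for replicate 2. The libraries of the 2 genotypes are separate for Derl3 (5.09 and 5.97 against 14.1 and 14.1 CPM) and Pdia4, and intermingled for Hsp90b1, Pdia6 and Canx.

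Hspa5 (ENSMUSG00000026864, chr2:34771970-34777547, plus strand) encodes BiP, the HSP70 chaperone of the ER and the repressor of the stress sensors. It was at 1049.9 and 1119.8 CPM in the MIZ-1WT libraries and at 1258 and 1160.45 CPM in the MIZ-1DPOZ libraries. The groups did not overlap, but the gap between them, from 1119.8 to 1160.45 CPM, was smaller than the difference within either genotype. The log2 fold change was 0.16 (SE 0.07, 95% confidence interval -0.01 to 0.32, adjusted p = 0.111). Hspa5 passed the test without MIZ-1DPOZ replicate 2, where its log2 fold change was 0.23. It also passed (0.23, adjusted p = 0.0372) when only genes with a mean of at least 30 RPM, the same scale without the TMM factor, were tested. That setting computed the TMM factors anew, and changes of either sign moved upward in it, such as that of Ero1lb from -0.15 to -0.07.

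Hsp90b1 (ENSMUSG00000020048, chr10:86690209-86705509, minus strand) encodes GRP94, the HSP90 of the ER, which folds integrins and Toll-like receptors. Its levels were 1050.3 and 1029.99 CPM in MIZ-1WT and 1055 and 1014 CPM in MIZ-1DPOZ, so the groups overlapped. The log2 fold change was -0.01 (SE 0.05, interval -0.14 to 0.12, adjusted p = 0.916). Its exons share bases with 1810014B01Rik on the opposite strand and with Gm15344 on the same strand, which held 563 and 744 counts over all libraries. The strand setting of the counting is not given in the sources used here, so reads of such overlaps cannot be assigned with certainty.

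Dnajb9 (ENSMUSG00000014905, chr12:44205559-44210326, minus strand) encodes ERdj4, a J-domain partner of BiP that recruits it to unfolded chains and to IRE1. Its levels were 19.1 and 21.9 CPM in MIZ-1WT and 27.3 and 27.8 CPM in MIZ-1DPOZ, with every MIZ-1DPOZ library above every MIZ-1WT library. It rose by 0.43 on the log2 scale (SE 0.09, adjusted p = 0.0133), or 1.35-fold. The call was lost without MIZ-1WT replicate 1 (0.33, adjusted p = 0.0807).

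Pdia4 (ENSMUSG00000025823, chr6:47796141-47813430, minus strand) encodes ERp72, a protein disulfide isomerase found in BiP complexes. Its levels were 784 and 889 CPM in MIZ-1WT and 1488 and 1356 CPM in MIZ-1DPOZ. This gave means of 836 ± 74.4 and 1422 ± 93.1 CPM (SD, n = 2), a log2 fold change of 0.77 (SE 0.08, adjusted p = 0.0023) and a fold of 1.70. The difference between the genotypes was larger than those between replicates, which were 0.18 in MIZ-1WT and 0.13 in size in MIZ-1DPOZ on the log2 scale. The change ranged from 0.68 to 0.86 over all alternative settings and was called in each.

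Pdia6 (ENSMUSG00000020571, chr12:17266545-17284770, plus strand) encodes P5, an isomerase that also acts on the sensors IRE1 and PERK. Its levels were 292 and 324 CPM in MIZ-1WT and 336 and 309 CPM in MIZ-1DPOZ, which overlapped. The log2 fold change was 0.07 (SE 0.07, interval -0.11 to 0.24, adjusted p = 0.485). Thus 2 isomerases of the same family differed in their call, but the difference between their changes was not tested.

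Creld2 (ENSMUSG00000023272, chr15:88819646-88826683, plus strand) encodes a stress-inducible ER protein with isomerase activity. It was at 42.3 and 46.7 CPM in MIZ-1WT and at 72.3 and 63.5 CPM in MIZ-1DPOZ, well apart. Creld2 rose by 0.61 on the log2 scale (SE 0.09, adjusted p = 0.00458), or 1.52-fold, and was called in every alternative setting. Derl3, Pdia4 and Creld2 were the 3 genes past a log2 fold change of 0.6, the size limit named in the study's methods, taken here with an unadjusted p under 0.05. Of all tested genes, 15.0% passed this in the same direction and 20.3% in either. Creld2 lay just inside the limit, and its change was below it without MIZ-1WT replicate 1 (0.54) or MIZ-1DPOZ replicate 1 (0.52).

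Calr (ENSMUSG00000003814, chr8:84841850-84846934, minus strand) encodes calreticulin, the soluble lectin and calcium store of the ER. Its levels were 695 and 696 CPM in MIZ-1WT and 683 and 668 CPM in MIZ-1DPOZ. Both MIZ-1DPOZ libraries were lower, but the log2 fold change of -0.04 (SE 0.05, interval -0.16 to 0.07) did not pass the test (adjusted p = 0.509). The annotation names a pseudogene, Calr-ps, whose reads may be shared.

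Canx (ENSMUSG00000020368, chr11:50293961-50325673, minus strand) encodes calnexin, its membrane-bound counterpart. It was at 691 and 662 CPM in MIZ-1WT and at 692 and 644 CPM in MIZ-1DPOZ, and the groups overlapped. The log2 fold change was -0.02 (SE 0.06, interval -0.16 to 0.12, adjusted p = 0.82).

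Derl3 (ENSMUSG00000009092, chr10:75893413-75895941, plus strand) encodes derlin-3, a membrane protein of ER-associated degradation that is abundant in secretory cells. It was the least abundant of the 10 genes, with 222 and 251 counts in MIZ-1WT and 671 and 620 counts in MIZ-1DPOZ. Its levels were 5.09 and 5.97 CPM in MIZ-1WT and 14.1 CPM in both MIZ-1DPOZ libraries. It had the largest change of the 10 genes, a log2 fold change of 1.35 (SE 0.12, interval 1.06 to 1.64, adjusted p = 0.00144), or 2.55-fold, and 7.76% of tested genes had a log2 fold change at least as high. The change was called in every alternative setting in which Derl3 was tested and ranged from 1.24 to 1.47.

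Sel1l (ENSMUSG00000020964, chr12:91806043-91849157, minus strand) encodes the adaptor that links substrates to the ubiquitin ligase HRD1. Its levels were 147 and 149.7 CPM in MIZ-1WT and 169 and 162 CPM in MIZ-1DPOZ, which did not overlap. It rose by 0.16 on the log2 scale (SE 0.05, adjusted p = 0.04), or 1.12-fold. This call was lost with DESeq2 (adjusted p = 0.0553), with no filter on low counts (0.0617), and without MIZ-1WT replicate 1 (0.14, 0.23), MIZ-1WT replicate 2 (0.17, 0.161) or MIZ-1DPOZ replicate 1 (0.14, 0.0682). Sel1l and Hspa5 thus had like changes, on either side of the threshold.

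**Figure D3:**
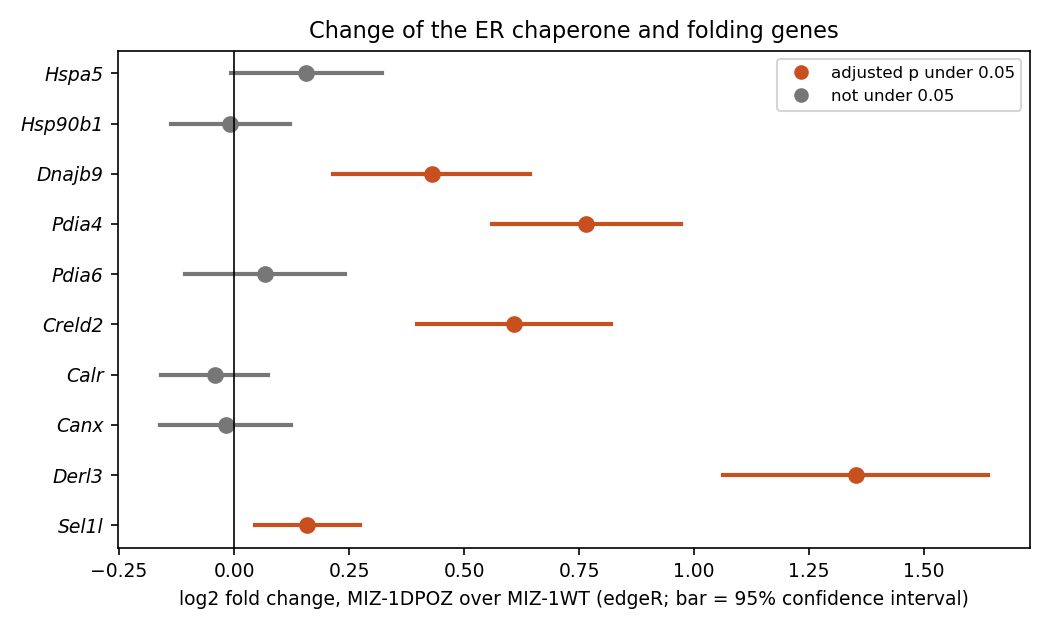
Log2 fold change of each gene, MIZ-1DPOZ over MIZ-1WT, from edgeR (points) with its 95% confidence interval (bars). The intervals of Derl3, Pdia4, Creld2, Dnajb9 and Sel1l lie above 0, and those of the other 5 genes, among them Hspa5 at 0.16, include 0.

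Set against the promoters printed above, the 7 genes with an ER stress response element included 2 that rose, Derl3 and Creld2, and 5 that were not called, Hspa5, Hsp90b1, Pdia6, Calr and Canx. The 3 genes with no element found in their windows, Pdia4, Dnajb9 and Sel1l, all rose. Of all tested genes, 21.1% were higher and 40.0% were called in either direction. The calls of Sel1l and Dnajb9 were lost in other settings. Sel1l, which was called, and Hspa5, which was not, both had a log2 fold change of 0.16. As given above, the Dnajb9 window lay wholly in exons of GENCODE, which also starts Pdia4 82 bases further downstream. Hsp90b1, with 2 elements, had the change nearest to 0. These counts are a description of 10 windows and were not tested.

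To compare levels between genes, counts were divided by the merged exon length of each gene and scaled to TPM, a measure per length with the same total in every library, within each library. On this scale Pdia4 was the most abundant in MIZ-1WT at 893 ± 73.3 TPM (SD, n = 2), above Hsp90b1 (661 ± 13.7), Hspa5 (657 ± 25.4) and Calr (619 ± 3.44). Canx (369 ± 13.7) and Pdia6 (211 ± 13.9) followed, then Creld2 (83.5 ± 5.21), Sel1l (44.4 ± 0.354), Dnajb9 (20.6 ± 1.83) and Derl3 (7.11 ± 0.753). Neighbours in this order were apart in both libraries except Hsp90b1 and Hspa5, which overlapped. In MIZ-1DPOZ the order was the same except that Hspa5 (789 ± 74.4 TPM) stood before Hsp90b1 (707 ± 45.8 TPM), again with overlap. With the longest transcript as the length, 8 of the 10 genes kept their rank in MIZ-1WT, and Hspa5 and Calr exchanged places. The lead of Pdia4 narrowed on that scale, to 681 and 765 TPM in the MIZ-1WT libraries against 679 and 660 TPM for Hsp90b1. Hsp90b1 then overlapped Calr (663 and 658 TPM).

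Of all tested genes, 21.1% were higher and 18.9% lower, the shares to set beside each list count of the main setting below. They are not the shares for counts without a library or with a minimum mean of 30 RPM. Those fits called other shares of all genes, and their counts over all genes are given further below. Across the other ER and secretory lists, 59 of 138 tested genes were higher and 11 lower in MIZ-1DPOZ. Their median log2 fold change was 0.11. The 138 include 11 outputs of the integrated stress response, described below, of which 7 were higher. Without MIZ-1WT replicate 1 the counts were 24 and 0, without MIZ-1WT replicate 2 they were 36 and 1, without MIZ-1DPOZ replicate 1 they were 48 and 10, and they were 62 and 9 without MIZ-1DPOZ replicate 2. In either direction 50.7% of the 138 genes were called, against 40.0% of all tested genes. By list this share ran from 37.5% in ER-associated degradation to 68.75% in COPII export and KDEL retrieval. It was also near 40.0% in the oligosaccharyltransferase (41.7%) and, outside the ER, in the cytosolic chaperones (43.5%). In the mitochondrial chaperones it was 16.7%. Among the other ER chaperones and cochaperones, 9 of 18 were higher and 0 lower (0 also at an unadjusted p and with DESeq2), with a median of 0.18. This list had 3 higher without MIZ-1WT replicate 1 and 6 without MIZ-1WT replicate 2. Fkbp11, a prolyl isomerase of secretory cells, had the largest rise at 1.47 (SE 0.16, adjusted p = 0.00238), from 2.48 and 2.95 CPM in MIZ-1WT to 8.03 and 7.02 CPM in MIZ-1DPOZ. Sdf2l1, a partner of BiP complexes, rose by 0.49, a call that was lost without MIZ-1WT replicate 1 (0.43, adjusted p = 0.068). Hyou1, an exchange factor of BiP, and Dnajb11, a BiP cochaperone, were not called, at 0.01 and 0.10. Dnajb11 passed with a minimum mean of 30 RPM (0.17, adjusted p = 0.0318). Another exchange factor of BiP and other BiP cochaperones in this list were among the 9 that were higher. Manf, a secreted stress protein, was not called at 0.17 but passed without MIZ-1DPOZ replicate 2 (0.25, adjusted p = 0.0246) and with a minimum mean of 30 RPM (0.25, adjusted p = 0.0399).

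Of the disulfide oxidases and isomerases, 6 of 16 were higher and 3 lower. The counts were 2 and 0 without MIZ-1WT replicate 1, 3 and 0 without MIZ-1WT replicate 2, 4 and 4 without MIZ-1DPOZ replicate 1, and 6 and 1 without MIZ-1DPOZ replicate 2. Prdx4, the peroxiredoxin of the ER, rose by 1.25 (SE 0.14, adjusted p = 0.00235), from 14.0 and 18.0 CPM to 40.5 and 35.3 CPM. Of the oxidases that recharge the isomerases, Ero1l rose by 0.34 and Ero1lb fell by 0.15, but the difference between their changes was not tested. The call of Ero1lb was lost with DESeq2's Wald test (adjusted p = 0.053) and with a minimum mean of 30 RPM (-0.07, adjusted p = 0.194). P4hb, the founding isomerase, rose by 0.28, Txndc11 fell by 0.21 and Pdia3, the isomerase of the lectin cycle, was not called at 0.14. Only the call of Prdx4 among these genes was kept without any 1 of the libraries. Without MIZ-1WT replicate 1 the adjusted p of Ero1l, Ero1lb, P4hb and Txndc11 ranged from 0.084 to 0.184, and without MIZ-1WT replicate 2 from 0.0664 to 0.187. P4hb (0.05) and Ero1lb (0.0902) also missed the threshold without MIZ-1DPOZ replicate 1, and Ero1lb (0.0514) without MIZ-1DPOZ replicate 2, where Pdia3 passed (0.17, adjusted p = 0.0444), as it did with a minimum mean of 30 RPM (0.21, adjusted p = 0.024).

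Glycoprotein quality control and cargo lectins held 4 higher and 0 lower among 9 tested genes (0 also at an unadjusted p and with DESeq2), with 2 higher without MIZ-1WT replicate 1. Lman1, the lectin ERGIC-53 that carries glycoproteins out of the ER, rose by 0.55 (SE 0.08, adjusted p = 0.00491). Uggt1, which returns misfolded glycoproteins to calnexin and calreticulin, and Ganab, a glucosidase of the same cycle, were not called, at 0.05 and -0.05. Calr and Canx, the lectins of this cycle, were not called either.

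In ER-associated degradation 7 of 24 genes were higher and 2 lower, with a median of -0.02. The counts were 4 and 0 without MIZ-1WT replicate 1, and without MIZ-1WT replicate 2 they were 6 and 1. The mannosidase-like proteins Edem1 (0.41, adjusted p = 0.0024) and Edem2 (0.64, adjusted p = 0.00133) and the lectin Os9 (0.36, adjusted p = 0.00359), which select misfolded glycoproteins, rose and kept their calls without any 1 of the libraries. Syvn1, the HRD1 ligase that SEL1L serves, fell by 0.53 (SE 0.08, adjusted p = 0.00662), from 117 and 107 CPM to 72.4 and 83.1 CPM, opposite in sign to Sel1l. Without MIZ-1WT replicate 1 this fall was 0.46 in size and missed the threshold (adjusted p = 0.0532). The other derlins differed from Derl3, as Derl1 rose by 0.23 and Derl2 fell by 0.22, and Herpud1, a scaffold of the ligase, rose by 0.25. The calls of Derl1, Derl2 and Herpud1 were lost without MIZ-1WT replicate 1 (adjusted p from 0.0891 to 0.195), those of both derlins without MIZ-1WT replicate 2 (0.107 and 0.122), and that of Herpud1 without MIZ-1DPOZ replicate 1 (0.0596).

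Of the sensors and factors of the unfolded protein response, 4 of 9 were higher and 0 lower (0 also at an unadjusted p and with DESeq2). Without MIZ-1WT replicate 1, and with a minimum mean of 30 RPM (6 genes tested), 2 were higher. Xbp1, the factor that IRE1 activates by splicing, was at 163 and 181 CPM in MIZ-1WT and at 261 and 242 CPM in MIZ-1DPOZ, a rise of 0.55 (SE 0.07, adjusted p = 0.00329). Counts per gene do not separate its spliced form. Creb3l2, a relative of ATF6, rose by 0.68 (adjusted p = 0.00572), Ern1, which encodes IRE1, by 0.40, and Atf6 by 0.18. Eif2ak3, which encodes PERK, and Atf4 were not called, at -0.12 and -0.08. The calls of Xbp1 and Creb3l2 were kept without any 1 of the libraries, that of Ern1 was lost without MIZ-1WT replicate 1 (0.32, adjusted p = 0.117), and that of Atf6 without MIZ-1WT replicate 1 (0.202) or MIZ-1WT replicate 2 (0.151).

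The outputs of the integrated stress response, the arm that runs through ATF4, held 7 higher and 0 lower of 11 genes (2 lower at an unadjusted p, 0 with DESeq2), with a median of 0.69. With a minimum mean of 30 RPM, which left 3 of these genes, 2 were higher. Asns, asparagine synthetase, rose by 3.20 (SE 0.32, adjusted p = 0.00191), from 0.963 and 2.12 CPM to 14.9 and 13.3 CPM, and Ppp1r15a, the phosphatase subunit GADD34, by 0.60 (adjusted p = 0.00877). Ddit3 (CHOP) and Trib3, which respond to ATF4 in prolonged stress, were not called, at -0.18 and 0.04. The members of this list thus divided between large rises and genes that were not called.

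The translocon and signal peptidase held 10 higher and 2 lower of 23 tested genes, the oligosaccharyltransferase 5 higher and 0 lower of 12 (0 also at an unadjusted p and with DESeq2), and COPII export and KDEL retrieval 7 higher and 4 lower of 16. Without MIZ-1WT replicate 1 the higher counts of these lists were 4, 1 and 1, and without MIZ-1WT replicate 2 they were 6, 2 and 1, with 0 lower in each case. COPII export also had 4 higher and 1 lower without MIZ-1DPOZ replicate 1. Sec61a1 (0.35) and Sec61b (0.39), subunits of the translocation channel, and Ssr4 (0.52), of the TRAP complex beside it, rose and kept their calls without any 1 of the libraries. So did Ddost (0.36), a subunit of the oligosaccharyltransferase, and Sec24d (1.03), a cargo adaptor of COPII coats. Sec11c (0.19), Stt3a (0.25), Rpn1 (0.20), Sar1b (0.27), Kdelr1 (0.24) and Kdelr2 (0.30) were higher, and Srp14 (-0.22) and Sec24b (-0.36) lower. The calls of these 8 genes were lost without MIZ-1WT replicate 1 (adjusted p from 0.054 to 0.231) and without MIZ-1WT replicate 2 (0.0612 to 0.183), and those of Rpn1, Sar1b, Kdelr1 and Sec24b also without MIZ-1DPOZ replicate 1 (0.0585 to 0.0907).

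Of 23 cytosolic chaperones 1 was higher and 9 lower, with a median of -0.15, and of 6 mitochondrial chaperones 0 were higher (0 also at an unadjusted p and with DESeq2) and 1 lower. The cytosolic list had 4 lower without MIZ-1WT replicate 1 and from 8 to 11 without each other library. It had 4 higher without MIZ-1DPOZ replicate 2, 0 without each other library, and 3 with a minimum mean of 30 RPM. Hsph1, an exchange factor of HSP70, fell by 1.13 (SE 0.13, adjusted p = 0.00258), from 110 and 83.9 CPM to 45.0 and 43.6 CPM. Hspa8, the constitutive cytosolic counterpart of BiP, fell by 0.47, and Hsp90aa1 and Hsp90ab1, the cytosolic counterparts of GRP94, by 0.48 and 0.58. These 3 calls were lost without MIZ-1WT replicate 1 (adjusted p from 0.0594 to 0.0898), the library with the highest levels of all 3. Tcp1, of the CCT ring, rose by 0.19 and mitochondrial Grpel1 fell by 0.19, but both calls were lost without MIZ-1WT replicate 1 (0.144 and 0.181) or MIZ-1WT replicate 2 (0.212 and 0.168), that of Tcp1 without MIZ-1DPOZ replicate 1 (0.0921) and that of Grpel1 without MIZ-1DPOZ replicate 2 (0.199). Hspd1 and Hspa9 in mitochondria were not called, at 0.03 and 0.08, but Hspa9 passed with a minimum mean of 30 RPM (0.16, adjusted p = 0.0451). Several of the cytosolic genes have near-identical processed copies, and their counts are uncertain to that extent.

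**Figure D4:**
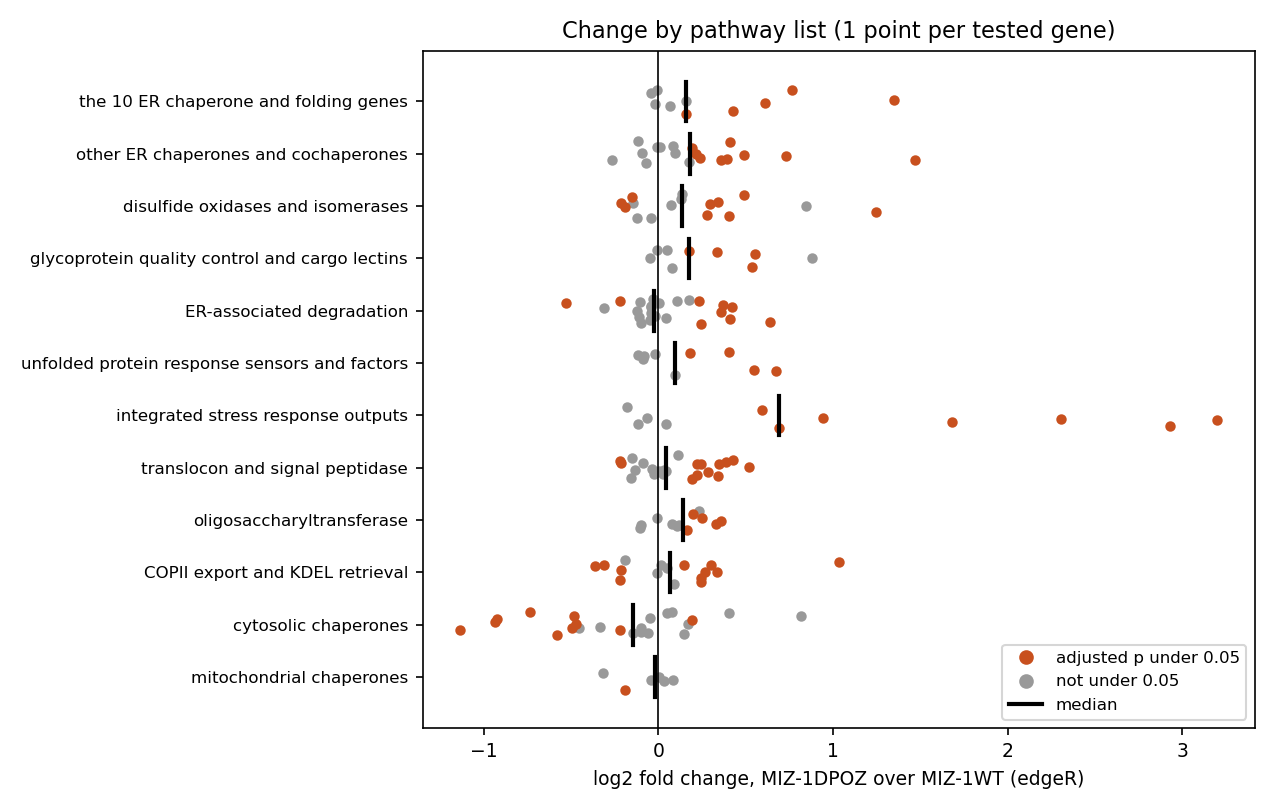
Log2 fold change of every tested gene by list (1 point per gene, spread vertically for visibility), with orange for an adjusted p under 0.05 and a bar at the median of each list. The ER lists have medians from -0.02 to 0.18, the integrated stress response 0.69 and the cytosolic chaperones -0.15.

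Marker levels of several cell types differed with genotype. The shares of all tested genes, 21.1% higher and 18.9% lower, stand beside each marker count below. Plasma cell markers were higher for 7 of 8 genes, Irf4 being the exception, and their summed level was 771 and 1081 CPM in MIZ-1WT and 2593 and 2435 CPM in MIZ-1DPOZ. Jchain, the joining chain of IgM and IgA, was at 302 and 616 CPM in MIZ-1WT and at 1948 and 1787 CPM in MIZ-1DPOZ, and Prdm1, the plasma cell factor BLIMP-1, was at 6.24 and 6.83 against 17.4 and 17.0 CPM. Jchain held most of the sum in MIZ-1DPOZ. Without it, a sum chosen after the data were seen, the other 7 markers came to 469 and 466 CPM in MIZ-1WT and 645 and 648 CPM in MIZ-1DPOZ, a fold of 1.38. Irf4 (243 and 235 CPM in MIZ-1WT) and Mzb1 (145 and 138 CPM) held most of this sum in MIZ-1WT. By gene the folds were 0.94 for Irf4, 1.66 for Mzb1, 1.39 for Ell2 and 1.54 for Sdc1. They were 2.63 for Prdm1, 3.88 for Tent5c and 5.79 for Tnfrsf17, which was below 1 CPM in MIZ-1WT. Ighm, the heavy chain of IgM and a main client of the ER chaperones in B cells, was at 4646 and 5981 CPM in MIZ-1WT and at 11165 and 10354 CPM in MIZ-1DPOZ (log2 fold change 1.02, adjusted p = 0.00378). In bulk libraries, a change in the number of cells of a type and a change in RNA per cell cannot be told apart, and the part of these cells in the rise of Derl3, Pdia4, Creld2 and Dnajb9 was not tested.

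The MIZ-1WT libraries differed in Jchain, which was higher in replicate 2, and the summed plasma markers were 0.49 higher there on the log2 scale. Without Jchain this difference was -0.01, with Irf4 and Mzb1 lower in replicate 2 and the other 5 markers higher. The summed macrophage markers were 0.42 higher in MIZ-1WT replicate 2 than in replicate 1, and differed by -0.68 in MIZ-1DPOZ. All 5 genes that rose in MIZ-1DPOZ were higher in MIZ-1WT replicate 2 than in replicate 1, by between 0.03 for Sel1l and 0.23 for Derl3. Over all 10 genes, 8 were higher in MIZ-1WT replicate 2, and 2 were higher in MIZ-1DPOZ replicate 2 than in replicate 1. The part of these marker differences in the differences between replicates was not tested. For 7 of the 10 genes the difference between genotypes exceeded the difference between replicates of either genotype. They include Hspa5 and Calr, which were not called. These counts on replicates were made for the 10 genes only, so how they compare with all tested genes is not known.

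Other markers moved as well. All 7 marginal zone B cell markers and all 7 cycling cell markers were higher in MIZ-1DPOZ, with summed levels of 2710.0 and 2738 against 3405 and 3670.0 CPM and of 209 and 206 against 876 and 762 CPM. Germinal center markers were higher for 5 of 6 genes (145 and 147 against 254 and 212 CPM summed), while Bcl6 was lower. Of 4 tested follicular markers 3 were lower (1218 and 1354 against 934 and 1028 CPM), and of 8 pan-B cell markers 5 were lower (9640.1 and 9904 against 8139 and 8528 CPM), so the defining genes of B cells were abundant in all libraries. All 18 macrophage markers were higher, with a summed level of 983 and 1311 CPM in MIZ-1WT and 5865 and 3670 CPM in MIZ-1DPOZ, and none of them was at 0 in any library. The parts of these cells in the changes of the chaperone genes were not tested.

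Markers of T cells, NK cells, neutrophils and plasmacytoid dendritic cells were at lower summed levels than those of macrophages in every library. Those of T cells summed to between 60.2 and 78.5 CPM, of NK cells to between 43.6 and 49.0 CPM, of neutrophils to between 4.38 and 17.6 CPM, and of plasmacytoid dendritic cells, which carry B220, to between 104 and 136 CPM. Of these lists, 1 of 8, 0 of 6, 2 of 7 and 1 of 7 tested genes were higher with edgeR, and 0 were lower in each. The counts of 0 were also 0 at an unadjusted p and with DESeq2. Erythroid markers ranged from 39.7 to 107 CPM, with 1 of 7 higher. Of the stroma and endothelium markers, Col1a1, Col3a1 and Pdgfra were below 10 counts in every library, and 1 of 3 tested genes, Pecam1, which B cells also express, was lower.

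**Figure D5:**
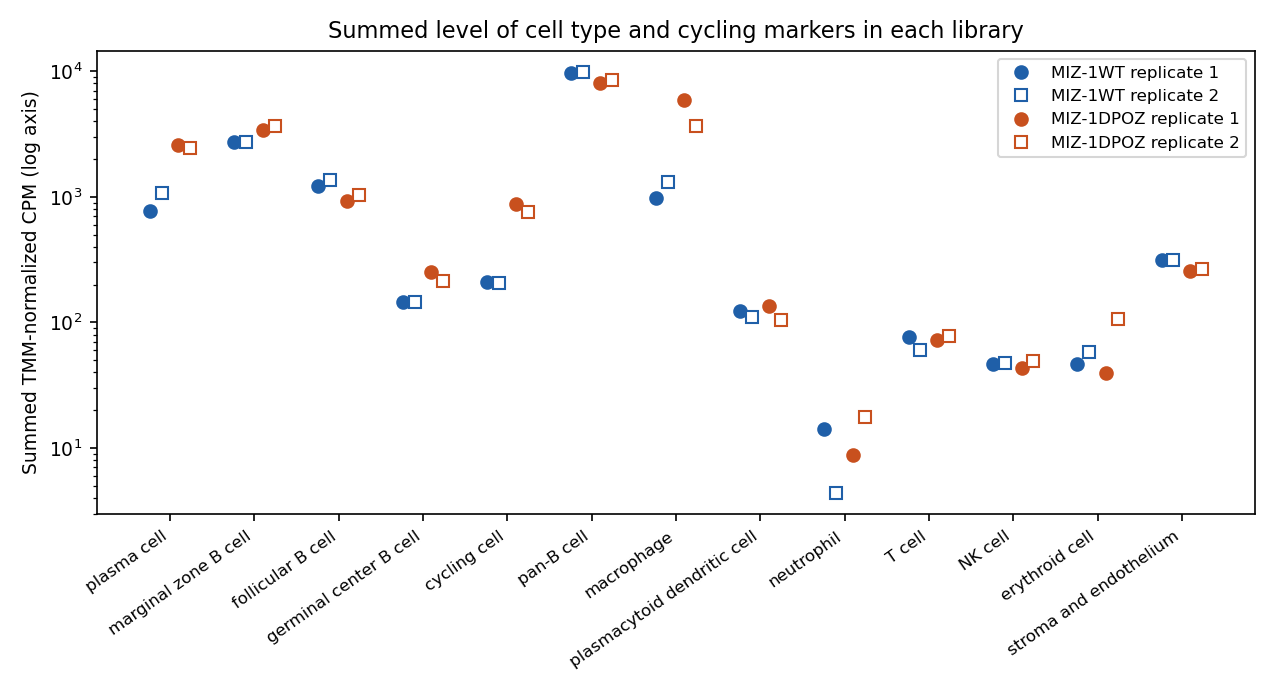
Summed TMM-normalized CPM of each marker list (log axis) in each library, with circles for replicate 1 and squares for replicate 2. Plasma cell, marginal zone, germinal center, cycling and macrophage markers are higher in both MIZ-1DPOZ libraries, and follicular and pan-B cell markers lower.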

How the data were processed

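RNA-seq was performed on B220+ splenocytes of MIZ-1WT and MIZ-1DPOZ mice, with 2 libraries per genotype, grouped as labelled. The libraries were stranded, paired-end and depleted of ribosomal RNA. After trimming, the authors aligned the reads to GRCm38 with TopHat2 (version 2.1.0 in the submitters' processing notes), used HTSeq to count them per Ensembl gene, and deposited these raw counts for each library without normalization or pooling. The strand setting and Ensembl release of the counting are not given in the sources used here. Rows that name no gene entered neither the library sizes nor the tests. They held the reads assigned to no feature (21.1% to 27.2%), ambiguous reads (0.281% to 0.302%) and reads not aligned uniquely (42.8% to 44.1%).

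Symbols, positions and exon lengths came from GENCODE M21 (GRCm38), which gave a symbol to 40340 of the 41214 genes. Counts were analysed with edgeR 4.0.16 in R 4.3.3: a minimum of 10 counts in 2 or more libraries, TMM normalization (factors 0.977 to 1.03) and the quasi-likelihood test, with p adjusted by Benjamini-Hochberg across the 14554 genes tested and called below 0.05. P-values measure the spread between 2 libraries per genotype. Alternatives were DESeq2's size factors, the Wald test of DESeq2 1.42.0, no filter, a minimum mean of 30 RPM, leaving out each library, a replicate block, and the table without its 257 immunoglobulin segments. Where a library was left out, the lone library of its genotype was assumed to vary like the others. The procedure was tested on simulated counts. Promoters were RefSeq windows of GRCm38.p6, and all 10 genes matched 1 window.

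The 10 genes, the pathway and marker lists, the motifs and the tests were chosen with earlier results of these data known. The genes named were the 10, some set for each list whatever their values, and the gene with the largest passing change in each direction in each list. Ighd matched no gene. Genes most like a given gene were not ranked, since 4 libraries cannot rank them.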

Additional observations from a re-analysis of the deposited data

How the results depend on the processing

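Derl3, Pdia4 and Creld2 kept their direction and their call in every setting in which they were tested, and no named gene that was called reversed its sign. The 10 genes had 4 higher with DESeq2's Wald test, with no filter, with a mean of at least 30 RPM (which removed Derl3 and Dnajb9) and with the replicate block, and from 3 to 6 higher, with 0 lower, when each library was left out. Over all tested genes, a mean of at least 30 RPM left 1464 higher and 1282 lower among 6052 genes, where the main setting had 3076 and 2746 among 14554, and 10 lower in the pathway lists, where there were 21. Leaving out each library gave from 1374 to 2955 higher and from 848 to 2626 lower over all genes, and from 24 to 66 higher and from 4 to 22 lower in the pathway lists, where the main setting had 60 and 21. The lowest counts were those without MIZ-1WT replicate 1, followed by those without MIZ-1WT replicate 2 (1728 and 1115 over all genes, 36 and 10 in the pathway lists). These fits have fewer samples. Among named genes, a mean of at least 30 RPM ended 5 calls and added 5, and the replicate block ended 11. The 30 RPM setting computed the TMM factors anew from the genes it kept. Log2 fold changes of either sign moved upward in it, such as those of Dnajb11 (0.10 to 0.17) and Txndc11 (-0.21 to -0.13). The calls it added or ended cannot be told apart from this shift. Of 45 named genes that were called, 19 kept their call without any 1 of the libraries.

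With a replicate block, 2633 genes were higher and 2099 lower, with 44 and 17 in the pathway lists. The deviations of libraries with the same number had a correlation of -0.07 between the genotypes, so the numbers were not taken as pairs. With 2 libraries per genotype, a change as small as that of Hspa5 or Sel1l lies at the limit of what could be called.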

Other observations

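The ER stress response element was found upstream of 28 genes other than the 10 described, of which 11 were tested. Of these, 2 were higher in MIZ-1DPOZ and 3 lower, where 21.1% of all tested genes were higher and 18.9% lower. Dnajc3, which encodes the BiP cochaperone P58IPK, rose by 0.24 (adjusted p = 0.0412), and Adcy3, an adenylate cyclase, by 1.06 (adjusted p = 0.00108). Syvn1 and Ero1lb (Ero1b in RefSeq), described above, fell, and the call of each was lost in other settings, as given there. Dnajc3, Adcy3 and Alg12 are named here after their values were seen. Whether the calls of these genes hold in the alternative settings was not examined gene by gene.

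Alg12, a mannosyltransferase that builds the glycan precursor in the ER, fell by 0.32 (SE 0.06, adjusted p = 0.0125), from 32.3 and 31.8 CPM in MIZ-1WT to 25.2 and 26.2 CPM in MIZ-1DPOZ. It lies on the opposite strand beside Creld2, and its element is the same stretch, chr15:88819520-88819538, that stands upstream of Creld2, which rose by 0.61. The element began at base -220 relative to the start of Alg12 and at base -126 relative to that of Creld2. The difference between the changes of these genes was not tested, and the strand setting of the counting is not known.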
